A study of Mus musculus with 15 samples.

Results

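The genes described here encode the machinery that copies chromosomal DNA in S phase, from the proteins that license replication origins to the enzymes that supply nucleotides. A list of 38 gene symbols was taken from a table with 29072 symbols, and of several transcripts of a gene the most abundant one, by its mean over the 15 libraries, was used. All 38 passed a filter of at least 0.5 RPKM (reads scaled to transcript length and to library depth) in at least 3 libraries, as did 13869 genes in all.

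The cells were brown preadipocytes, the precursors of heat-producing fat cells, isolated from the stromal-vascular fraction of interscapular brown fat of 129SvEv mice. They had been immortalised with SV40 large T antigen, a viral protein known to bind and inactivate RB family proteins and p53, and every group, control included, carried it. Total RNA was sequenced from 5 groups of 3 libraries: untreated control cells, cells given a fibroblast growth factor (FGF1, FGF8b or FGF9) at 5.56 nM for 48 h, and cells given FGF8b and 2 µM BAY-876, which inhibits GLUT1, a glucose transporter. No culture time was found for the control cells, so whether they were kept for the same 48 h is not known. The series description puts 1 µg/ml heparin with the growth factors. The sample labels name heparin for the FGF9 libraries alone, and no group had heparin alone or BAY-876 alone. Whether replicate libraries stem from separate cultures is not in the labels, so each p-value measures the spread between these libraries, which may be technical.

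Replication starts at origins bound by the origin recognition complex (ORC). There Cdc6 and Cdt1 load the ring-shaped MCM helicase in G1, and geminin (Gmnn) blocks Cdt1 once S phase has begun. Cdc45 and the GINS complex then join MCM to form the active helicase, polymerase alpha-primase starts each strand, and the RFC complex loads the sliding clamp PCNA for the main polymerases. Many of these genes are known targets of E2F transcription factors, which RB family proteins hold in check. In RNA from whole cultures, a larger share of cells in S phase cannot be told apart from more transcript per cell.

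Depth recovered from the values was 27.01 to 42.6 M reads per library, and recovered reads of a member ran from 75 (Pold1) to 15197 (Mcm6) in a library. Pairs of libraries within a group correlated at 0.9913 to 0.9967 over all genes tested, and pairs from different groups at 0.8786 to 0.9962. The 8 preadipocyte markers examined were all detected, but their summed level was 2025 to 2351 RPKM in control, 1285 to 1321 with FGF1, 456 to 542 with FGF8b, 438 to 548 with FGF9 and 171 to 176 with FGF8b plus BAY-876. With FGF1, 2 of the 8 rose and 3 fell, with a median log2 difference of 0.10, and Ly6a made most of the drop of the sum, from 1015 ± 72.8 RPKM in control to 245 ± 13.7 (SD, n = 3). With FGF8b, 2 rose, Thy1 from 37.8 ± 2.97 to 62.8 ± 4.63 RPKM and Ebf2, and 6 fell. Summed markers of macrophages did not exceed 2.70 RPKM in any library, with C1qa listed at 0 in all 15, and those of skeletal muscle did not exceed 1.34 RPKM, with Myod1, Myf5 and Myog at 0. Summed endothelial markers were 7.45 to 8.86 RPKM in control and at most 1.68 in the treated libraries. Those of mature brown adipocytes were 5.03 to 6.69 RPKM in control, 7.41 to 9.27 with FGF1, 32.7 to 35.5 with FGF8b, 40.8 to 48.3 with FGF9 and 5.47 to 6.43 with BAY-876 added. The adipocyte sum moved with Ucp1, which was at 0.0226 ± 0.0232 RPKM in control, 26.7 ± 1.26 with FGF8b and 37.4 ± 2.94 with FGF9 (SD, n = 3), while Fabp4 was at 5.86 ± 0.838, 7.66 ± 0.888 and 6.71 ± 0.844. Mean levels of Adipoq, Plin1 and Cidea were at most 0.028 RPKM in any group. Summed markers of mural cells were 0.957 to 1.28 RPKM in control, 0.942 to 1.16 with FGF1, 2.0 to 2.50 with FGF8b, 2.14 to 2.68 with FGF9 and 2.61 to 3.96 with BAY-876 added, nearly all of it Cspg4. Above 1 RPKM in some library were 2 of 6 macrophage, 2 of 5 endothelial, 1 of 5 muscle, 1 of 4 mural and 2 of 5 adipocyte markers. The part of these marker shifts in the results below was not tested.

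Promoter sequences are shown for a motif that the choice of the 38 members did not use. RefSeq promoter windows of build GRCm38.p6, from 250 bases before to 50 bases after each start site, were matched for 31 of the 38 members; Mcm4, Gins1, Gins2, Gins4, Gmnn, Rfc2 and Pole had no entry. An E2F core motif, searched as TTTCCCGC, TTTCGCGC, TTTGCCGC or TTTGGCGC on both strands, was in the window of 12 of the 31 (38.7%). Some genes had several windows, and a gene was counted if any of them held a match. The same letters were in 11 of the 38 genes (28.9%) with a window among 45 other replication genes. They were in 4.78% of the 9674 genes that had a window and were tested for expression, and in 2.60% of all 27025 genes with a window. The CCAAT box, searched as CCAAT on both strands, was in 21 of the 31 members (67.7%) and in 43.4% of the same 9674 genes. The members printed below differ in role and in response, and all are among the 12 with a match, so they do not represent the list. Each line gives the 160 bases before the start site, 5′ to 3′ on the strand of the gene, with E2F core matches in capitals.
Orc1, chr4:108579294-108579453, plus strand: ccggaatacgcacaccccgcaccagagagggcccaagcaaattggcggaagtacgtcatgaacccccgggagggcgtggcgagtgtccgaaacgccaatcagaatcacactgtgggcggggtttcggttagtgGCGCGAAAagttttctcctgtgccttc
Cdc6, chr11:98907991-98908150, plus strand: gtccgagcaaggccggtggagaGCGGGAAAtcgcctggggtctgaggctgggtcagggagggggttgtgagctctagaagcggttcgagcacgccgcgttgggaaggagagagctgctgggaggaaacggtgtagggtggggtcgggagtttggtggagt
Mcm5, chr8:75109349-75109508, plus strand: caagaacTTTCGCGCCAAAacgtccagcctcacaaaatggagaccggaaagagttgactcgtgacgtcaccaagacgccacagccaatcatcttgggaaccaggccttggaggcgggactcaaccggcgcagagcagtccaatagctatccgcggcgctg
Mcm6, chr1:128359706-128359865, minus strand: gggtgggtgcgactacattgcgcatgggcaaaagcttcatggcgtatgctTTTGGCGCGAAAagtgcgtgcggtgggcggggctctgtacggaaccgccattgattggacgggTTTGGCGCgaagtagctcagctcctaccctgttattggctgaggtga
Pola1, chrX:93632156-93632315, minus strand: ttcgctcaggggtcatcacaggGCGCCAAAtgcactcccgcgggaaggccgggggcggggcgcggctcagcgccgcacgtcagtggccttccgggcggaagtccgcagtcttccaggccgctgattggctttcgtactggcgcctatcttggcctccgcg
Gins3, chr8:95633399-95633558, plus strand: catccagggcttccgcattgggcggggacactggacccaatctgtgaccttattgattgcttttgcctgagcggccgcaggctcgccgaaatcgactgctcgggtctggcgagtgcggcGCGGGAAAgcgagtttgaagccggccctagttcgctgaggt
In Mcm5 the capitals hold 2 overlapping matches on opposite strands, which start 153 and 149 bases before the start site. Mcm6 has 3 matches, of which the first 2 overlap. A match is a run of letters and no binding was measured. Cdc6, Mcm5 and Pola1 were higher with FGF8b than in control, Mcm6 did not pass that test and Gins3 was lower. Every printed member holds a match, so these lines cannot show whether a match goes with a response. Among members with a window, 8 of 23 that were higher with FGF8b and 4 of 8 that were not higher held a match. These shares were not compared by a test.

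Transcripts of many replication genes were higher with each of the 3 growth factors than in control (test of each comparison: limma on log2(RPKM + 0.5), adjusted p under 0.05, with differences given ± SE). More of these genes passed the test with FGF8b or FGF9 than with FGF1, and so did more of all genes tested. Of all genes, 19.3% were higher with FGF1, 37.8% with FGF8b and 38.7% with FGF9. With FGF1, 20 of 38 members were higher than in control, where 19.3% of all genes tested were higher and 15.1% were lower. No member was lower by limma, by an unadjusted p under 0.05 or by voom on recovered reads. The median difference of the members was 0.17 on the log2 scale, against 0.02 for all genes tested. Without FGF1 replicate 1, 13 members were higher. With the libraries rescaled by trimmed means, the FGF1 calls on Mcm7, Gins4, Orc6, Rfc2 and Lig1 were lost (limma adjusted p = 0.0656 to 0.152).

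With FGF8b, 28 members rose and 1, Gins3, fell, where 37.8% of all genes rose and 26.6% fell. The members' median log2 difference was 0.46, against 0.08 for all genes. With FGF9, 27 rose and Gins3 again fell, where 38.7% of all genes rose and 27% fell, with a median of 0.47 against 0.09. Trimmed-mean scaling ended the FGF8b calls on Orc1, Pola2, Pole and Rpa2 (limma adjusted p = 0.0752 to 0.314) and the FGF9 call on Rpa2 (limma adjusted p = 0.189). It also turned the sign of the FGF8b differences of Mcm4, Rfc1, Rpa1, Lig1 and Rrm1, 5 members that had not passed. The ranges of the treated and control libraries did not overlap for 27 members higher with FGF1, 31 higher with FGF8b and 28 higher with FGF9, where 26.6%, 39.4% and 38.3% of all genes lay apart in that direction. Members lower without overlap numbered 0, 1 and 1, where 20.5%, 28.2% and 27.5% of all genes did. These comparisons share the control libraries. Over control, FGF1, FGF8b and FGF9 together, 30 members passed a moderated F-test in limma, which 73.7% of all genes passed. That count is near the background share, and nothing is read from it for the list. The 8 members that did not pass were Mcm4, Mcm6, Gins2, Pcna, Rfc1, Pold1, Rpa1 and Lig1.

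**Figure D1:**
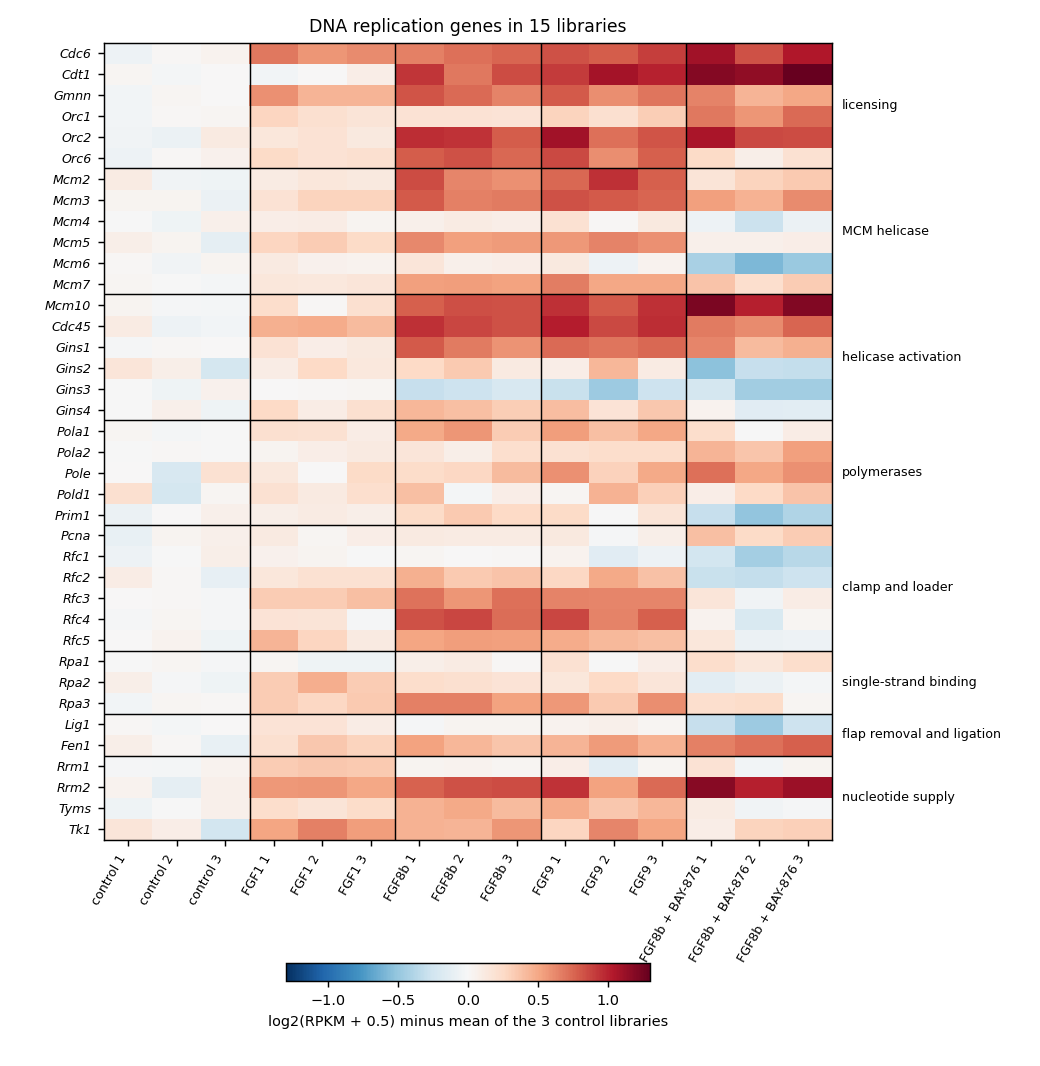
Each row is a replication gene and each column a library, coloured by log2(RPKM + 0.5) minus the mean of the 3 control libraries, with genes grouped by role. Cdt1, Orc2, Cdc45 and Mcm10 are darkest red with FGF8b and FGF9, and Gins3 is blue there. The colours do not show FGF8b plus BAY-876 against FGF8b alone directly. In that comparison 24 of the 38 rows passed as lower, or 18 after trimmed-mean scaling, where 34.8% of all genes were lower before that scaling.

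Set against each other directly, FGF8b gave higher levels than FGF1 for 21 members and lower levels for 4, where 33.3% of all genes were higher and 26.6% lower. The median was 0.20 for the members and 0.04 for all genes. The ranges lay apart for 22 higher and 4 lower members, where 38.2% and 30.7% of all genes did. The 4 lower members were Rrm1, Gins3, Rpa2 and Lig1. Without FGF1 replicate 2, or without FGF8b replicate 3, 2 members were lower. Trimmed-mean scaling ended the calls on Gins4 and Prim1 (limma adjusted p = 0.112 and 0.0894). FGF9 and FGF8b were not separated: 0 of 38 members passed in limma, where 0.202% of all genes were higher with FGF9 and 0.0937% lower. Voom also called 0, and Cdt1 alone had an unadjusted p under 0.05, with a log2 difference of 0.18 ± 0.07. The ranges of the FGF9 and FGF8b libraries lay apart for 2 members higher and 1 lower, where 5.47% and 5.37% of all genes did. The 95% intervals of all 38 differences stayed within 0.393 of 0 on the log2 scale.

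**Figure D2:**
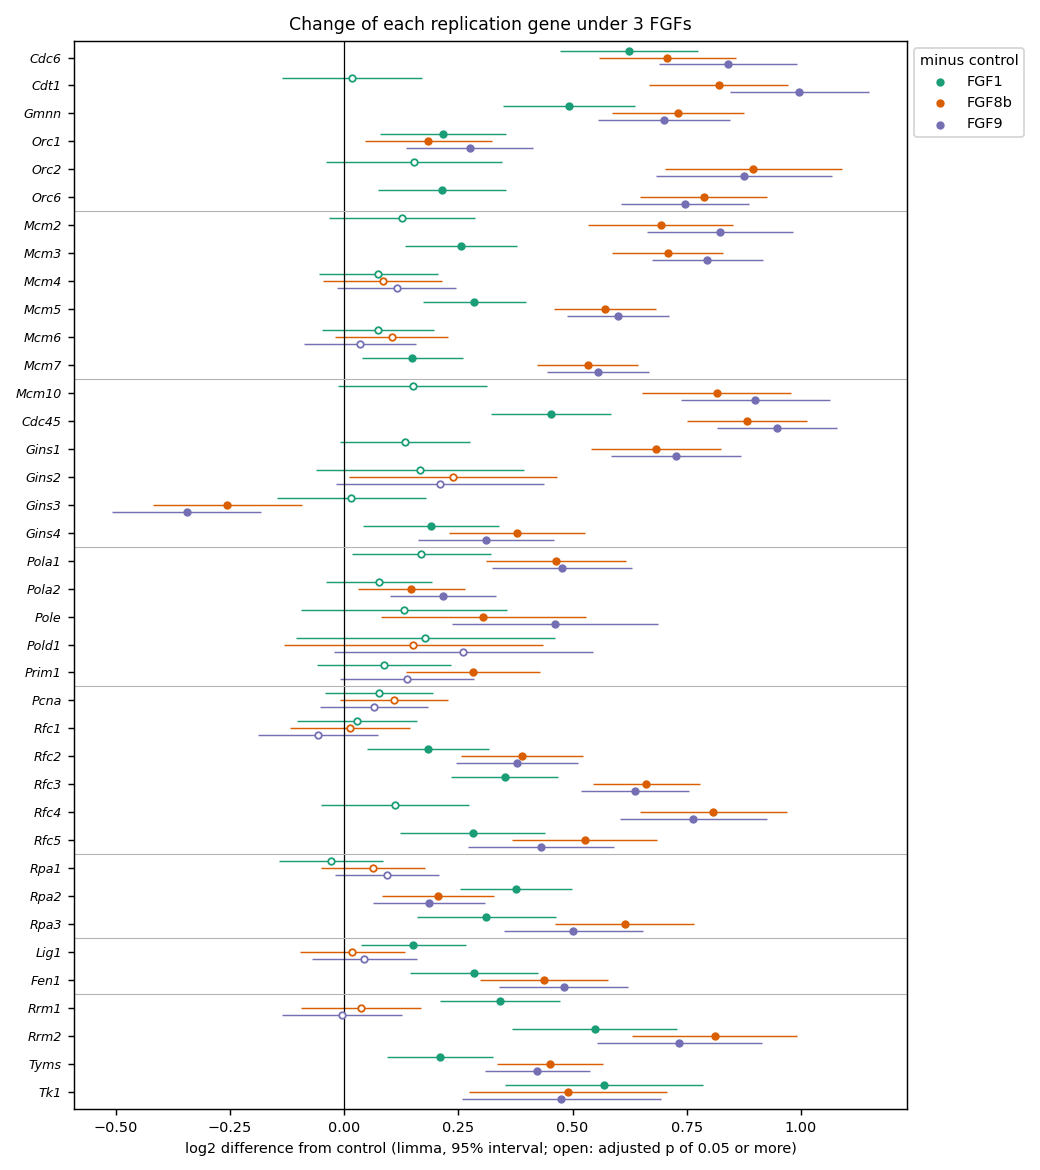
Points are log2 differences from control for each replication gene with FGF1, FGF8b and FGF9, bars are 95% intervals from limma, and open points have an adjusted p of 0.05 or more. Most FGF8b and FGF9 points lie together and right of FGF1, while Rrm1, Rpa2, Lig1, Tk1, Gins3 and Rfc1 lie furthest right with FGF1.

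The licensing genes had the highest median difference of the 8 roles with FGF8b, 0.76 on the log2 scale. Counts by role, here and below, cover 2 to 6 genes each. Of all genes, 19.3% rose with FGF1, 37.8% with FGF8b and 38.7% with FGF9. All 6 licensing genes (Orc1, Orc2, Orc6, Cdc6, Cdt1 and Gmnn) rose with FGF8b and with FGF9, and 4 rose with FGF1. After trimmed-mean scaling, 5 were called with FGF8b, 6 with FGF9 and 3 with FGF1. Cdt1, the loading factor that geminin blocks, was at 19.3, 18.7 and 19.1 RPKM in control, 18.5, 19.1 and 20.2 with FGF1, 36.6, 30.96 and 34.7 with FGF8b, 36.2, 40.8 and 38.6 with FGF9 and 44.1, 43.1 and 50.01 with FGF8b plus BAY-876. The FGF1 libraries lay over the control range, and every FGF8b, FGF9 and BAY-876 library lay above both. Its log2 difference from control was 0.02 ± 0.07 with FGF1 (limma adjusted p = 0.887), 0.82 ± 0.07 with FGF8b (limma adjusted p = 6.39e-08) and 1.00 ± 0.07 with FGF9 (limma adjusted p = 5.75e-09), and FGF8b exceeded FGF1 by 0.80 ± 0.07 (limma adjusted p = 1.08e-07). The FGF1 value is near 0 and turns to -0.025 under trimmed-mean scaling.

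Cdc6, the partner of Cdt1 in helicase loading, already differed from control with FGF1. It was at 8.94, 9.47 and 9.67 RPKM in control, 15.4, 14.1 and 14.6 with FGF1, 14.97, 15.7 and 16.2 with FGF8b, 17.04, 16.5 and 17.9 with FGF9 and 20.5, 16.9 and 19.8 with FGF8b plus BAY-876. The FGF1 libraries lay above all controls, and the FGF8b libraries overlapped them. The log2 difference from control was 0.62 ± 0.07 with FGF1 (limma adjusted p = 4.81e-06) and 0.71 ± 0.07 with FGF8b (limma adjusted p = 3.14e-07), and the difference between FGF8b and FGF1 was 0.08 ± 0.07 (limma adjusted p = 0.32). Gmnn, which encodes the inhibitor geminin, was at 33.6, 35.2 and 34.4 RPKM in control, 52.1, 46.9 and 47.1 with FGF1, 60.9, 57.6 and 53.99 with FGF8b, 60.3, 52.6 and 56.1 with FGF9 and 54.1, 46.9 and 48.9 with FGF8b plus BAY-876. No treated library reached down to the control range. Gmnn rose by 0.49 ± 0.07, 0.73 ± 0.07 and 0.70 ± 0.07 with FGF1, FGF8b and FGF9 on the log2 scale (limma adjusted p = 3.51e-05, 1.36e-07 and 2.03e-07).

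Among the ORC subunits, Orc2 had the widest step between FGF1 and FGF8b. Orc2 was at 12.4, 12.1 and 13.9 RPKM in control, 14.2, 14.6 and 14.1 with FGF1, 25.4, 25.1 and 22.5 with FGF8b, 27.9, 21.4 and 22.98 with FGF9 and 27.3, 23.6 and 23.6 with FGF8b plus BAY-876. The FGF1 libraries sat just above the control range, and the other treated libraries all lay higher. Its difference from control was 0.15 ± 0.09 with FGF1, which did not pass (limma adjusted p = 0.218), and 0.90 ± 0.09 with FGF8b (limma adjusted p = 3.61e-07). Orc6 rose less with FGF1, by 0.21 ± 0.07, than with FGF8b, by 0.79 ± 0.07, and the 2 treatments differed by 0.57 ± 0.07 (limma adjusted p = 1.82e-06). Orc1, the largest ORC subunit and an ATPase, was the least abundant member of the group at 5.84 ± 0.148 RPKM (SD, n = 3) in control and rose by 0.18 ± 0.07 with FGF8b, a call lost after trimmed-mean scaling (limma adjusted p = 0.178).

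**Figure D3:**
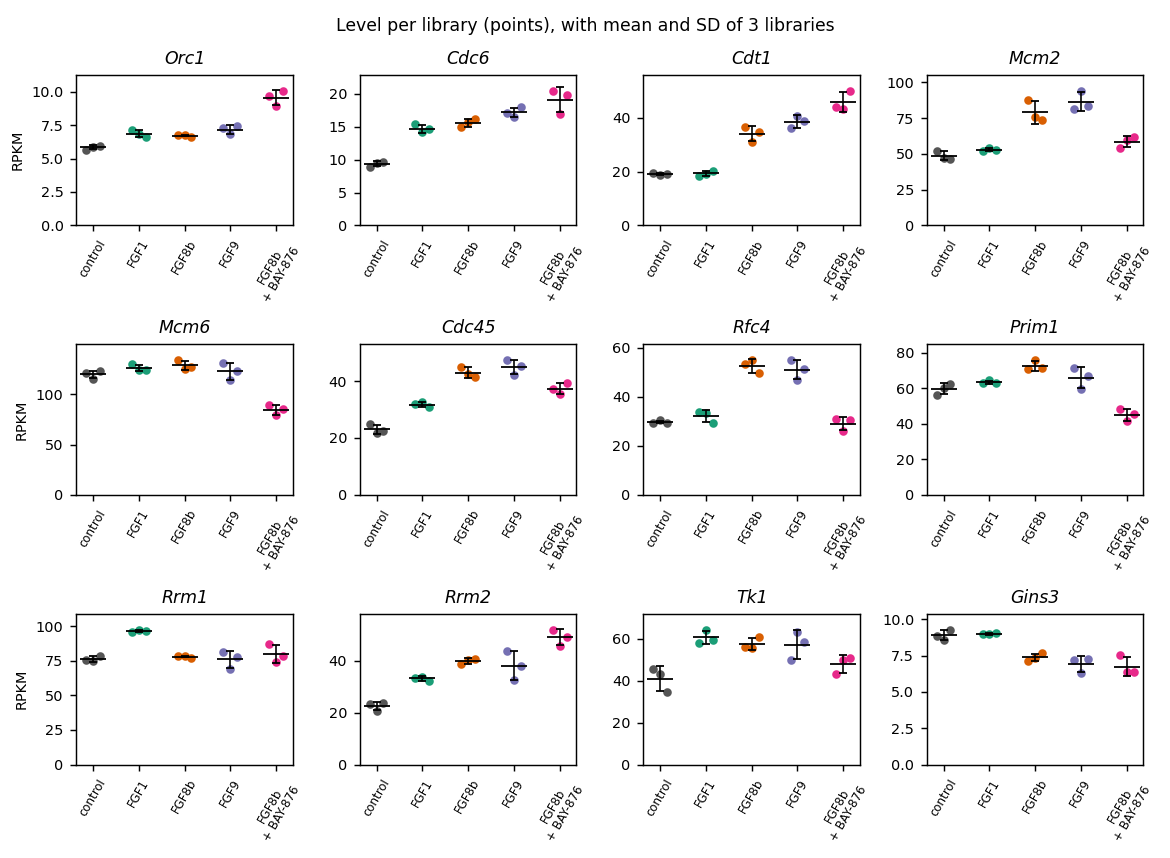
Points are RPKM in single libraries by group for selected replication genes, with the mean of 3 libraries and its SD as line and bar. Cdt1 steps up between FGF1 and FGF8b, Rrm1 is high with FGF1, and Mcm6 and Rfc4 are low with FGF8b plus BAY-876 where Cdt1 is at its highest.

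Of the 6 subunits of the MCM ring, 4 passed with FGF8b. Mcm2, Mcm3, Mcm5 and Mcm7 rose with FGF8b and with FGF9, also after trimmed-mean scaling, while Mcm4 and Mcm6 did not pass with any of the 3 growth factors. Mcm2 was at 52.2, 47.2 and 46.6 RPKM in control, 52.3, 53.9 and 53.04 with FGF1, 88.04, 75.8 and 73.5 with FGF8b, 81.7, 94.2 and 83.8 with FGF9 and 54.4, 59.5 and 61.8 with FGF8b plus BAY-876. The FGF1 libraries lay just above the control range, and those with FGF8b and FGF9 were all higher. Mcm2 differed from control by 0.13 ± 0.07 with FGF1 (limma adjusted p = 0.221), 0.69 ± 0.07 with FGF8b (limma adjusted p = 7.86e-07) and 0.82 ± 0.07 with FGF9 (limma adjusted p = 9.79e-08). Mcm5, whose promoter carries the overlapping matches shown above, was at 59.3, 57.5 and 51.9 RPKM in control, 68.3, 70.6 and 66.8 with FGF1, 86.9, 81.4 and 82.7 with FGF8b, 83.1, 87.9 and 84.99 with FGF9 and 58.9, 58.7 and 59.8 with FGF8b plus BAY-876. It stepped up from control to FGF1 and again to FGF8b with no overlap, by 0.29 ± 0.05 and then 0.29 ± 0.05 (limma adjusted p = 0.000539 and 0.000225).

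Mcm6 was the most abundant MCM transcript in control and did not pass with any growth factor. Its promoter holds 3 E2F core matches. It was at 121, 116 and 123 RPKM in control, 129.8, 124 and 124 with FGF1, 134, 126 and 127 with FGF8b, 131, 114 and 123 with FGF9 and 89.1, 79.4 and 85.5 with FGF8b plus BAY-876. The growth factor libraries lay over or just above the control range, except FGF9 replicate 2, which lay just below it. The 3 BAY-876 libraries lay below every other library. Its difference from control was 0.10 ± 0.06 with FGF8b (limma adjusted p = 0.129). Mcm4 differed from control by 0.08 ± 0.06 (limma adjusted p = 0.238).

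Of the 6 genes that turn the loaded ring into a moving helicase, 4 (Mcm10, Cdc45, Gins1 and Gins4) rose with FGF8b and with FGF9. Cdc45, a subunit of the active helicase, was at 24.8, 21.9 and 22.5 RPKM in control, 31.9, 32.5 and 30.7 with FGF1, 44.9, 42.6 and 41.3 with FGF8b, 47.3, 42.2 and 45.4 with FGF9 and 37.2, 35.6 and 39.2 with FGF8b plus BAY-876. Control, FGF1 and FGF8b formed 3 ranges that did not overlap. It rose by 0.45 ± 0.06 with FGF1, 0.88 ± 0.06 with FGF8b and 0.95 ± 0.06 with FGF9 (limma adjusted p = 2.97e-05, 4.36e-09 and 1.64e-09). Mcm10, which is needed to fire the assembled helicase, was at 6.69, 6.44 and 6.41 RPKM in control, 7.71, 6.58 and 7.59 with FGF1, 11.5, 12.1 and 11.9 with FGF8b, 13.1, 11.7 and 13.02 with FGF9 and 15.9, 13.6 and 15.6 with FGF8b plus BAY-876. The control and FGF1 libraries were close to each other and all other libraries were higher, with a log2 difference from control of 0.82 ± 0.08 for FGF8b (limma adjusted p = 1.49e-07).

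The 4 subunits of GINS split. Gins1 rose by 0.68 ± 0.07 and Gins4 by 0.38 ± 0.07 with FGF8b, Gins2 differed by 0.24 ± 0.11 without passing (limma adjusted p = 0.0624), and Gins3 fell. Gins3 was at 8.87, 8.57 and 9.28 RPKM in control, 8.96, 8.97 and 9.08 with FGF1, 7.16, 7.32 and 7.65 with FGF8b, 7.19, 6.28 and 7.30 with FGF9 and 7.51, 6.37 and 6.35 with FGF8b plus BAY-876. All control and FGF1 libraries were above all libraries with FGF8b, FGF9 or BAY-876. The difference from control was -0.26 ± 0.08 with FGF8b (limma adjusted p = 0.00864) and -0.34 ± 0.08 with FGF9 (limma adjusted p = 0.000981).

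Among the polymerase genes, 0 of the 5 (Pola1, Pola2, Prim1, Pole and Pold1) passed with FGF1 in limma, voom called 0, and 1 had an unadjusted p under 0.05. Of all genes, 19.3% were higher with FGF1, so a count of 0 among 5 says little about polymerases. With FGF8b, 4 rose, where 37.8% of all genes did, and 2 after trimmed-mean scaling, where 4286 of 13869 genes did. With FGF9, 3 rose, where 38.7% of all genes did. Pola1, the catalytic subunit of polymerase alpha, was at 25.03, 24.2 and 24.4 RPKM in control, 28.5, 28.3 and 26.2 with FGF1, 34.6, 36.7 and 30.96 with FGF8b, 35.9, 32.3 and 34.9 with FGF9 and 28.9, 24.4 and 26.3 with FGF8b plus BAY-876. The FGF8b and FGF9 libraries all lay above those of control and FGF1, and the difference from control was 0.46 ± 0.07 with FGF8b (limma adjusted p = 3.71e-05). Prim1, the primase that makes the RNA primer, rose by 0.28 ± 0.07 with FGF8b (limma adjusted p = 0.00212) and differed by 0.14 ± 0.07 with FGF9 (limma adjusted p = 0.0891). Pole, the catalytic subunit of the leading-strand polymerase, rose by 0.30 ± 0.11 with FGF8b, a call lost after trimmed-mean scaling (limma adjusted p = 0.0752), and by 0.46 ± 0.11 with FGF9. Pold1, the catalytic subunit of polymerase delta, passed in no comparison and was among the lowest members at 6.43 ± 1.04 RPKM in control (SD, n = 3).

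In the clamp and its loader, 4 RFC genes passed with FGF8b and the clamp gene did not. Pcna had the highest level of all members, at 280.0, 306 and 313 RPKM in control, 324, 305 and 319 with FGF1, 324, 322 and 322 with FGF8b, 327, 297 and 316 with FGF9 and 392, 356 and 377 with FGF8b plus BAY-876. The growth factor libraries overlapped the control range or lay just above it, and the difference with FGF8b was 0.11 ± 0.06 (limma adjusted p = 0.099). Rfc2, Rfc3, Rfc4 and Rfc5, the small subunits of the loader, rose with FGF8b and with FGF9, also after trimmed-mean scaling, and the large subunit Rfc1 did not pass, at 0.01 ± 0.06 with FGF8b (limma adjusted p = 0.869), though it was lower with FGF9 after trimmed-mean scaling. Rfc4 was at 29.5, 30.4 and 29.5 RPKM in control, 33.9, 33.4 and 29.5 with FGF1, 53.3, 54.9 and 49.7 with FGF8b, 54.9, 47.1 and 51.3 with FGF9 and 30.8, 26.01 and 30.4 with FGF8b plus BAY-876. The FGF8b and FGF9 libraries lay above all the others, and the BAY-876 libraries lay around the control range. Rfc4 rose by 0.81 ± 0.08 with FGF8b (limma adjusted p = 1.49e-07) and differed by 0.11 ± 0.08 with FGF1 (limma adjusted p = 0.291).

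RPA, which coats single-stranded DNA, has 3 subunits. Rpa3 rose most with FGF8b, by 0.61 ± 0.07, Rpa1 passed with none of the growth factors, and Rpa2 was highest with FGF1. Rpa2 was at 29.3, 27.5 and 26.7 RPKM in control, 35.2, 38.7 and 34.98 with FGF1, 32.8, 32.2 and 31.4 with FGF8b, 30.8, 33.4 and 30.98 with FGF9 and 25.2, 26.4 and 27.4 with FGF8b plus BAY-876. The FGF1 libraries lay above all others, and FGF8b was lower than FGF1 by a log2 difference of -0.17 ± 0.06 (limma adjusted p = 0.0182). That call was lost without FGF1 replicate 2 (limma adjusted p = 0.103) or without FGF8b replicate 3 (limma adjusted p = 0.0567).

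Fen1 and Lig1 remove and seal the RNA-primed ends of lagging-strand fragments. Fen1 rose by 0.28 ± 0.07 with FGF1, 0.44 ± 0.07 with FGF8b and 0.48 ± 0.07 with FGF9. Lig1, the ligase, was at 40.95, 39.8 and 40.4 RPKM in control, 45.8, 45.9 and 43.2 with FGF1, 39.9, 41.4 and 41.5 with FGF8b, 41.6, 42.2 and 41.1 with FGF9 and 32.7, 29.04 and 33.5 with FGF8b plus BAY-876. FGF1 libraries were the highest, those with FGF8b and FGF9 lay near control, and those with BAY-876 were the lowest. Lig1 differed from control by 0.15 ± 0.05 with FGF1 (limma adjusted p = 0.0402) and by 0.02 ± 0.05 with FGF8b (limma adjusted p = 0.787). The FGF1 call was lost after trimmed-mean scaling (limma adjusted p = 0.119) and without any 1 of FGF1 replicates 1 and 2 or control replicates 1, 2 and 3 (limma adjusted p = 0.0636 to 0.125). The difference of FGF8b from FGF1 was -0.13 ± 0.05 (limma adjusted p = 0.0432), a call lost without FGF1 replicate 1 or 2 or any 1 FGF8b library (limma adjusted p = 0.0596 to 0.129).

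The 4 genes of nucleotide supply all rose with FGF1, and 3 rose with FGF8b and with FGF9. The exception was Rrm1, the large subunit of ribonucleotide reductase, which makes deoxynucleotides. Rrm1 was at 75.3, 74.5 and 78.4 RPKM in control, 95.7, 97.4 and 96.4 with FGF1, 78.2, 78.5 and 77.3 with FGF8b, 80.9, 69.3 and 77.6 with FGF9 and 86.8, 74.2 and 78.1 with FGF8b plus BAY-876. Only the FGF1 libraries stood clear of the rest. The difference from control was 0.34 ± 0.06 with FGF1 (limma adjusted p = 0.000457) and 0.04 ± 0.06 with FGF8b (limma adjusted p = 0.628), and that of FGF8b from FGF1 was -0.31 ± 0.06 (limma adjusted p = 0.000517).

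The small subunit of the same enzyme, Rrm2, rose with all 3 growth factors. Rrm2 was at 23.3, 20.8 and 23.6 RPKM in control, 33.5, 33.9 and 32.2 with FGF1, 38.6, 40.3 and 40.9 with FGF8b, 43.7, 32.6 and 37.8 with FGF9 and 51.9, 45.9 and 49.2 with FGF8b plus BAY-876. It was above control in every treated library and highest with BAY-876. Rrm2 rose by 0.55 ± 0.08 with FGF1, 0.81 ± 0.08 with FGF8b and 0.73 ± 0.08 with FGF9 (limma adjusted p = 0.000108, 5.4e-07 and 1.55e-06). Tk1, the thymidine kinase of the salvage pathway, was at 45.4, 43.04 and 34.3 RPKM in control, 58.1, 64.2 and 59.5 with FGF1, 55.9, 55.6 and 60.6 with FGF8b, 49.6, 63.2 and 58.2 with FGF9 and 43.1, 49.7 and 50.7 with FGF8b plus BAY-876. Its 3 control libraries were widely spread, and the growth factor libraries all lay above them. Tk1 rose by 0.57 ± 0.10 with FGF1 and 0.49 ± 0.10 with FGF8b (limma adjusted p = 0.000416 and 0.000577), and the difference between these 2 treatments was -0.08 ± 0.10 (limma adjusted p = 0.525). Tyms, which makes thymidylate, rose by 0.21 ± 0.05 with FGF1 and 0.45 ± 0.05 with FGF8b.

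Most replication genes were lower with BAY-876 and FGF8b than with FGF8b alone. Of the 38, 24 were lower and 10 higher, where 34.8% of all genes were lower and 22.5% higher, and Orc2, Gins3, Pold1 and Rrm1 did not pass. The members' median log2 difference was -0.23, against -0.08 for all genes tested. The ranges lay apart for 22 members lower and 10 higher, where 37.9% and 24.8% of all genes did. The count of higher members is near the background share, and nothing is read from it for the list. Trimmed-mean scaling moved the split of all calls from 3117 higher and 4824 lower to 3939 and 3988, and left 18 members lower and 10 higher. Its lost calls were those on Mcm3, Mcm4, Gins1, Gmnn, Cdc45 and Tk1.

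The MCM and RFC genes were lower with BAY-876. All 6 MCM subunits were below FGF8b alone, where 34.8% of all genes were lower, with log2 differences of -0.18 (Mcm3) to -0.60 (Mcm6). After trimmed-mean scaling the 6 were still below, and 4 passed. Mcm5 fell from 83.7 ± 2.90 to 59.2 ± 0.6 RPKM (SD, n = 3), a log2 difference of -0.50 ± 0.05 (limma adjusted p = 1.06e-06), and then differed from control by 0.07 ± 0.05 (limma adjusted p = 0.216). Mcm6, which had not passed with FGF8b, ended below control, at a difference of -0.50 ± 0.06 (limma adjusted p = 1.23e-06). All 5 RFC genes fell under both scalings, with log2 differences of -0.36 (Rfc1) to -0.85 (Rfc4). Rfc4 fell from 52.6 ± 2.68 to 29.1 ± 2.68 RPKM, a log2 difference of -0.85 ± 0.08 (limma adjusted p = 1.67e-07).

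Other members that fell by more than 0.5 were spread over the roles. Prim1 was at 56.5, 60.2 and 62.7 RPKM in control, 62.9, 64.5 and 63.1 with FGF1, 70.9, 75.9 and 71.4 with FGF8b, 71.2, 59.5 and 67.2 with FGF9 and 48.5, 41.7 and 45.3 with FGF8b plus BAY-876. The BAY-876 libraries were below all the others, with log2 differences of -0.68 ± 0.07 from FGF8b and -0.40 ± 0.07 from control (limma adjusted p = 6.11e-07 and 7.4e-05). Gins2 fell by 0.62 ± 0.11 and Orc6 fell by 0.61 ± 0.07 against FGF8b (limma adjusted p = 0.000143 and 1.23e-06). Rfc2, from 68.04 ± 3.26 to 42.2 ± 0.667 RPKM, fell by 0.68 ± 0.06 (limma adjusted p = 2.32e-07). Gmnn, Cdc45 and Tk1 were lower, with differences of -0.20 ± 0.07, -0.20 ± 0.06 and -0.26 ± 0.10, and each of these 3 calls was lost after trimmed-mean scaling (limma adjusted p = 0.179, 0.117 and 0.150). They were also lost without FGF8b replicate 1 or BAY-876 replicate 2, Gmnn's without BAY-876 replicate 3, and Tk1's without FGF8b replicate 2 or 3 or BAY-876 replicate 1.

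The 10 members that were higher with BAY-876 included Cdt1 and Cdc6, the helicase loaders. Cdt1 went from 34.1 ± 2.87 RPKM with FGF8b to 45.7 ± 3.73 with the inhibitor added, by 0.42 ± 0.07 on the log2 scale (limma adjusted p = 0.00013), and Cdc6 rose by 0.28 ± 0.07 (limma adjusted p = 0.00343). Orc1 had the largest rise. It was at 5.67, 5.89 and 5.95 RPKM in control, 7.17, 6.81 and 6.62 with FGF1, 6.73, 6.72 and 6.64 with FGF8b, 7.27, 6.83 and 7.41 with FGF9 and 9.66, 8.94 and 10.1 with FGF8b plus BAY-876. The BAY-876 libraries were above all the others, by 0.48 ± 0.07 against FGF8b (limma adjusted p = 1.37e-05).

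The other members higher with BAY-876 were Mcm10, Pola2, Pole, Rrm2, Fen1, Pcna and Rpa1, at 0.14 (Rpa1) to 0.33 (Mcm10). Pcna rose by 0.21 ± 0.06 to 375 ± 18.03 RPKM (limma adjusted p = 0.00384), and all 5 loader genes were lower. Of polymerase alpha-primase, the accessory subunit Pola2 rose by 0.30 ± 0.05, while Pola1 was at -0.35 ± 0.07 and Prim1 at the value given above. The call on Pole, at 0.30 ± 0.11, was lost without FGF8b replicate 1 or 2 or BAY-876 replicate 1 (limma adjusted p = 0.0688 to 0.0943).

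**Figure D4:**
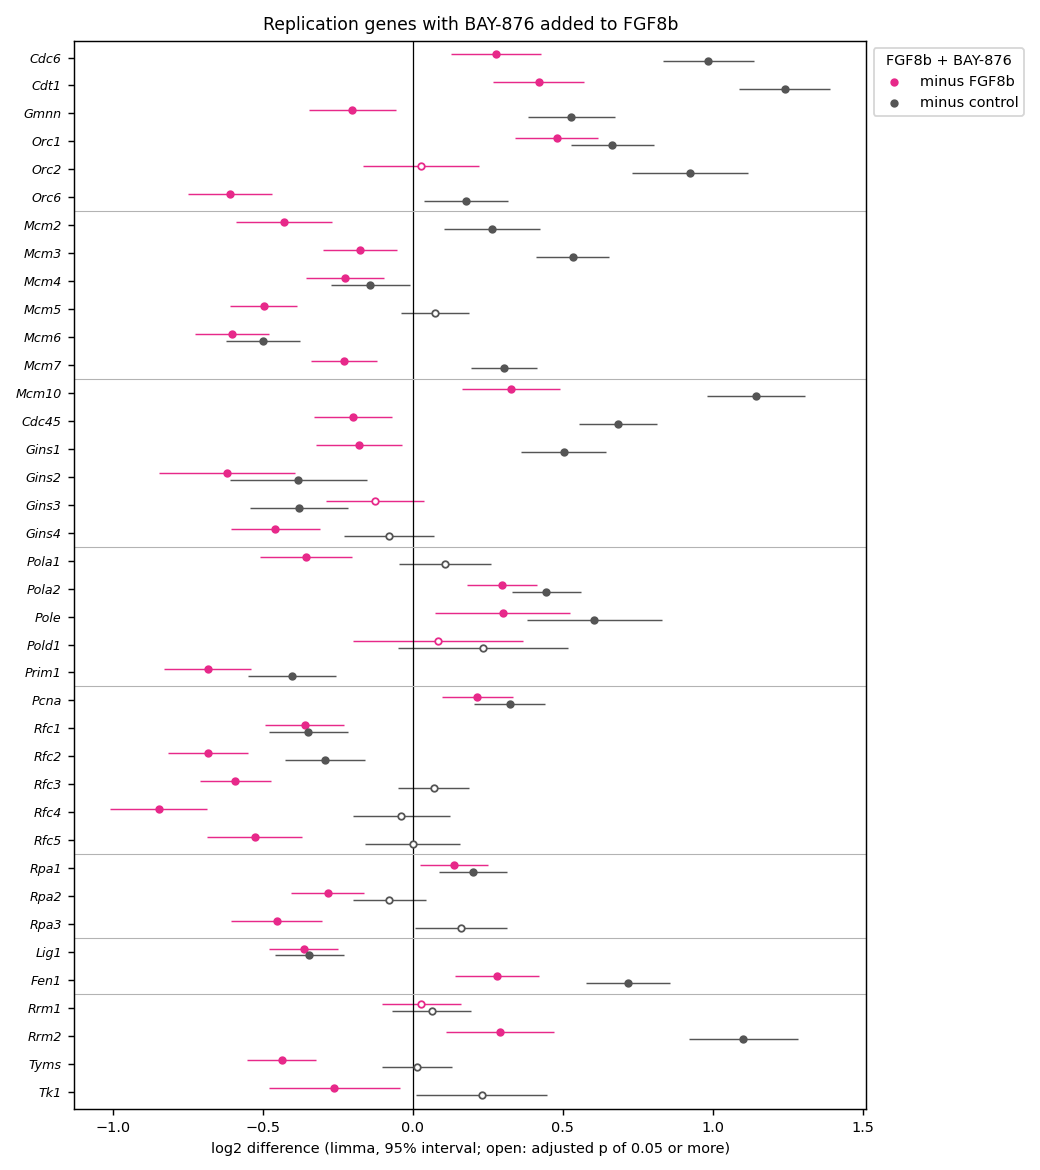
Points are log2 differences of cells given FGF8b plus BAY-876 from cells given FGF8b alone and from control, bars are 95% intervals from limma, and open points have an adjusted p of 0.05 or more. The MCM and RFC genes lie left of 0 against FGF8b, while Orc1, Cdt1, Cdc6, Mcm10, Fen1 and Rrm2 lie right of 0 in both comparisons.

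Against control, cells with FGF8b plus BAY-876 had 18 members higher and 8 lower, where 36.8% of all genes were higher and 35.9% lower. The ranges of the 2 groups lay apart for 19 higher and 8 lower members, where 36.9% and 36.4% of all genes did. All 6 licensing genes were higher, under either scaling, by 0.18 (Orc6) to 1.24 (Cdt1). The 8 lower members were Mcm4, Mcm6, Gins2, Gins3, Prim1, Rfc1, Rfc2 and Lig1. Lig1 fell by 0.35 ± 0.05 (limma adjusted p = 3.06e-05) and Rfc1 fell by 0.35 ± 0.06 (limma adjusted p = 0.000106). Over all 5 groups, 11 members had their highest mean with FGF8b plus BAY-876 and another 11 their lowest, while 25 had their lowest mean in control. The same counts were not made for all genes tested, so nothing is read from them for the list. With Tk1, the difference from control was 0.23 ± 0.10 and did not pass (limma adjusted p = 0.0546), but passed without control replicate 1 (limma adjusted p = 0.0193) or BAY-876 replicate 1 (limma adjusted p = 0.0227).

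The members that rose and those that fell with BAY-876 both included genes with E2F core matches, 3 of 9 matched higher members and 7 of 18 matched lower ones. The 2 shares were not compared by a test.

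A further 45 replication genes outside the list were counted in the same comparisons. With FGF1, 23 were higher and 2 lower, where 19.3% and 15.1% of all genes were. With FGF8b, 35 were higher and 1 lower, against 37.8% and 26.6% of all genes, and with FGF9, 38 and 1, against 38.7% and 27%. For FGF8b against FGF1, 16 were higher, near the 33.3% of all genes, and 2 were lower, against 26.6%, with a median of 0.14. With BAY-876 against FGF8b, 8 were higher and 21 lower, against 22.5% and 34.8% of all genes. Recql4, a helicase needed to start replication, was at 1.54 ± 0.0959 RPKM in control and 5.66 ± 0.748 with FGF8b (SD, n = 3), a log2 difference of 1.59 ± 0.10 (limma adjusted p = 1.52e-09). Samhd1, which breaks down deoxynucleotides, fell the most, from 187 ± 22.5 RPKM in control to 103 ± 7.71 with FGF1, 53.1 ± 2.58 with FGF8b and 33.7 ± 4.94 with BAY-876 added. With BAY-876 against FGF8b, Dscc1, part of an alternative clamp loader, fell by 0.84 ± 0.11 (limma adjusted p = 7.21e-06). Orc3, an ORC subunit, fell by 0.75 ± 0.07 and Timeless, which protects the moving fork, fell by 0.69 ± 0.13.

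Genes of mitosis, the stage that follows replication in the cell cycle, were counted as well. With FGF1 all 25 mitosis genes examined rose, also after trimmed-mean scaling, with a median log2 difference of 0.54, where 19.3% of all genes rose. With FGF8b, 11 rose and 5 fell, near the shares of all genes, 37.8% and 26.6%, with a median of 0.12 against 0.08 for all genes, and trimmed-mean scaling gave 7 and 6. Compared directly, 21 of the 25 were lower with FGF8b than with FGF1 and 1, Ndc80, was higher, with a median of -0.43, where 26.6% of all genes were lower. Trimmed-mean scaling, voom and RefSeq transcripts also gave 21 lower. The same FGF1 libraries enter both of these comparisons. In that comparison the replication genes had a median of 0.20 and 4 lower members, and the difference between the lists was not tested.

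Mki67, the proliferation marker, was at 48.6 ± 2.11 RPKM in control, 73.2 ± 2.05 with FGF1, 42.9 ± 3.61 with FGF8b and 37.1 ± 3.35 with BAY-876 added (SD, n = 3). Its difference between FGF8b and FGF1 was -0.77 ± 0.07 (limma adjusted p = 1.58e-07). Cdc20, which activates the anaphase-promoting complex, was also lower with FGF8b, at -1.08 ± 0.10 (limma adjusted p = 1.19e-07). Among the 21 mitosis genes matched to a promoter window, 1 held an E2F core match and 16 (76.2%) a CCAAT box.

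**Figure D5:**
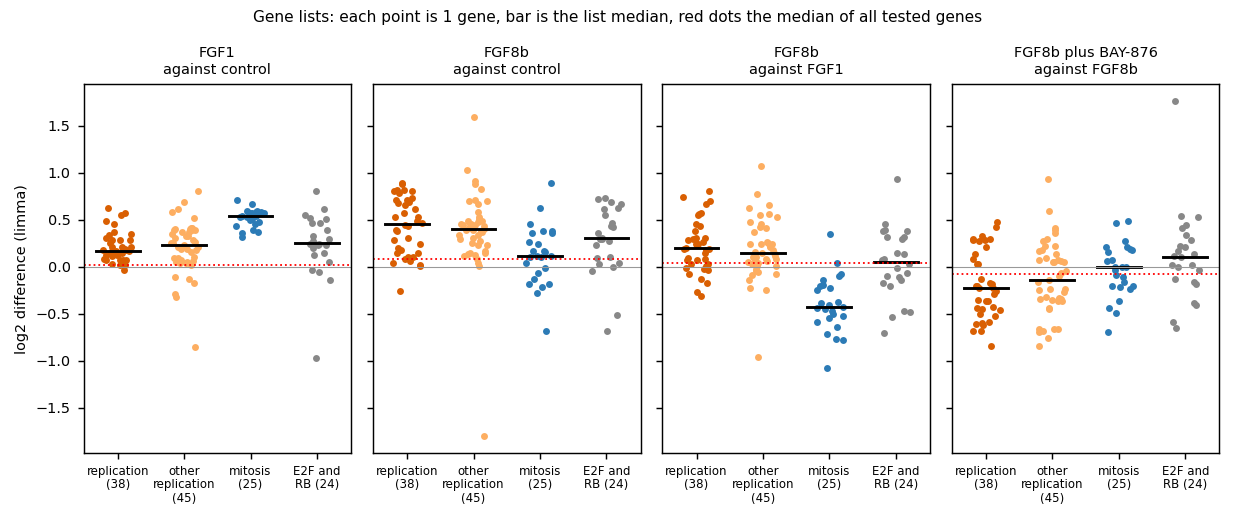
Points are log2 differences of single genes, by comparison, for the replication genes, the further replication genes, the E2F and RB genes and the mitosis genes, with the median of each list as a black bar and that of all genes tested as a red dotted line. For FGF8b against FGF1 the median of the mitosis genes is -0.43 and that of the replication genes 0.20.

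The list called E2F and RB genes holds 24 genes. Beside the E2F, DP and RB families it includes Ccne1, Ccne2, Ccna2, Cdk2, Cdc25a, Cdkn1a, Cdkn1b, Mybl2, Lin54, Skp2 and Fbxo5. Its counts are therefore not counts of E2F and RB family genes alone. Of the 24, 14 rose and 1 fell with FGF1, where 19.3% and 15.1% of all genes did. With FGF8b, 16 rose and 2 fell, against 37.8% and 26.6% of all genes, and with BAY-876 against FGF8b, 8 rose and 4 fell, against 22.5% and 34.8%. E2f1, an activator of replication genes, was at 12.5 ± 1.54 RPKM in control, 14.96 ± 0.92 with FGF1, 19.6 ± 0.835 with FGF8b and 24.1 ± 1.68 with BAY-876 added (SD, n = 3). Cdkn1a encodes p21, an inhibitor of cyclin-dependent kinases that also binds PCNA. It was at 16.4 ± 1.21 RPKM in control, 8.12 ± 0.678 with FGF1, 15.9 ± 1.09 with FGF8b and 55.2 ± 1.65 with BAY-876 added, a log2 difference of 1.76 ± 0.07 from FGF8b (limma adjusted p = 3.26e-11). The part of Cdkn1a in the levels of the replication genes was not tested.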

How the data were processed

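Total RNA of 15 libraries (5 groups of 3) was sequenced. The authors deposited 1 table of 168326 transcript lines with decimal commas and no named unit. From its steps the values are RPKM, as deposited. By library, 94.6% to 95.5% of low values were whole multiples of 1 read within 0.05. Whole reads were recovered for 13869 of 13869 tested genes within 0.02, at the smallest transcript length that fitted. That length equalled the annotated one for 90.3% of 3475 Ensembl transcripts, so recovered reads are estimates. Per the submitters' processing notes, CASAVA and bcl2fastq were used; the aligner, genome build and annotation were not given in the sources used here. How reads shared between overlapping, antisense or near-identical genes were assigned is not given either, so values of members with such copies are uncertain.

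Lines without a symbol (23172) were left out, and each symbol took its line with the highest mean, which for the members was an AK clone (26), an Ensembl (10) or a RefSeq (2) transcript. Levels were log2(RPKM + 0.5) for genes that reached 0.5 RPKM in 3 or more libraries. limma 3.58.1 (R 4.3.3), with moderated variances that follow the mean level, was fitted to all 15 libraries, with Benjamini-Hochberg adjustment over 13869 genes and a threshold of 0.05. Differences are on the log2(RPKM + 0.5) scale, which understates changes of low genes, with SE. Python 3.11.15 and pandas 2.3.3 made the tables and matplotlib 3.10.9 the plots. The fit was tested on simulated data. Whether the replicate numbers in the titles pair libraries across groups is not stated, and they were not used in the main fit. Of 30 same-numbered pairs, 11 had deviations that correlated above 0.1 (range -0.443 to 0.534). Differently numbered pairs were not examined, so these values cannot decide whether the libraries are paired.

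The members and all lists were chosen with earlier results of these data known. The genes given in full follow a rule: 10 fixed ones (Mcm2, Mcm5, Cdc6, Cdt1, Gmnn, Cdc45, Pcna, Lig1, Rrm2 and Tk1) and up to 5 members per comparison and direction with the largest called difference and no overlap between the groups. Members printed beyond it, such as Pola1, Fen1 and single GINS, ORC and RPA genes, were chosen after their values were seen, as were the named genes of other lists. Alternatives were other pseudocounts, filters, trimmed-mean scaling, RefSeq or summed transcripts, no trend, voom, a replicate block, 2-group fits and leaving out each library.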

Additional observations from a re-analysis of the deposited data

How the results depend on the processing

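Among the counts of members, 258 alternative values were within 1.5 times the main count and 5 were not. Members higher with FGF1 numbered 13 to 17 with 1 library left out, against 20. Members lower with FGF8b against FGF1 numbered 2 with summed transcripts and 2 to 4 with 1 library left out, against 4. Members lower with FGF9 numbered 2 after trimmed-mean scaling, against 1. Differences of members picked by the naming rule kept direction and side of the threshold in 1629 alternatives, lost the call in 39, gained it in 3 and turned direction in 12.

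Their turned values were Cdt1 with FGF1 (-0.025 after trimmed-mean scaling, -0.0073 with the RefSeq transcript, -0.018 to 0.045 with 1 library left out), Lig1 with FGF8b (-0.071) and FGF9 (-0.053), and Pcna with FGF9 (-0.033) and with FGF8b against FGF1 (-0.016), the last 4 after trimmed-mean scaling. For FGF9 against FGF8b with 1 library left out, Gmnn ranged from -0.080 to 0.018, Rrm2 from -0.18 to 0.027 and Tk1 from -0.092 to 0.081. Over all 38 members, trimmed-mean scaling turned 3 differences with FGF1, 5 with FGF8b, 4 with FGF9 and 3 with FGF8b against FGF1, Rfc1, Rrm1, Rpa1 and Mcm4 with FGF8b among them, and 0 of those had passed the test. The cause was not tested.

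With a replicate block, the members called higher and lower numbered 20 and 0 with FGF1, 30 and 1 with FGF8b, 27 and 1 with FGF9, and 10 and 24 with BAY-876 against FGF8b. The numbers are shared labels and no pairing is stated. The block ended the Lig1 call for FGF8b against FGF1 (limma adjusted p = 0.052). The size that passed varied with the gene: Gins2 at 0.24 did not pass with FGF8b, and Rpa1 at 0.14 passed with BAY-876 against FGF8b.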

Other observations

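Most members were represented by AK cDNA clones or Ensembl transcripts, so the RefSeq transcript of each symbol was fitted as well. Because the main fit used the most abundant transcript, the mean over all libraries could then only be equal or lower. Cdt1 had a mean of 12.9 RPKM in control and 33.4 with FGF8b plus BAY-876, and Tyms 21.5 RPKM in control. The calls were largely the same genes. Shared calls numbered 19 higher with FGF1, 28 higher and 1 lower with FGF8b, 27 higher and 1 lower with FGF9, and 10 higher and 24 lower with BAY-876 against FGF8b, and no member was called in opposite directions by the 2 transcripts.

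Across the 5 group means, the genes outside the list whose pattern was most like the mean of the replication genes were Trim41 (Pearson r 0.999), Ppil1, Coq3, Brd7, Nudcd2, Ndfip2, Nr4a2 and Daam1 (r 0.997). These r describe 5 points and carry no p. None of the 8 is in the other lists examined.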
